A study of Drosophila melanogaster with 2 samples.

Results

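The cytosolic ribosomal protein (RP) genes code for the proteins of the ribosome that works outside mitochondria, and the binding of kay near their starts is described here. They were taken by symbol from the protein-coding genes of the Ensembl dm6 annotation, as symbols that begin with RpL or RpS followed by a letter or digit. This gave 92 of 13958 protein-coding genes, of which 50 carry large-subunit symbols and 38 small-subunit symbols. Another 4 carry RpLP symbols, the genes RpLP0, RpLP1 and RpLP2 of the ribosomal stalk and RpLP0-like. Symbols that end in -like, 5 of the 92, were kept because they fit the rule. Whether these 5 code for proteins of the finished ribosome was not checked. The gene sta, which codes for the small-subunit protein RpSA, carries no such symbol and was not counted.

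Ribosomal proteins assemble with ribosomal RNA into a small subunit, which reads the mRNA, and a large subunit, which joins the amino acids. Their genes are among the most strongly and evenly transcribed in animal cells. In flies many of them start at a run of pyrimidines known as the TCT initiator in place of the usual initiator, and many of the promoters of broadly active fly genes carry the DRE, the site of the factor DREF, or motif 1, the site of M1BP. The protein kay, the Fos of flies, has a leucine zipper through which it joins the Jun protein Jra to form AP-1. AP-1 is known for its part in responses to stress, in wound closure and in development, and it binds the letters TGACTCA or TGAGTCA.

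Chromatin immunoprecipitation with sequencing was done with an antibody to GFP on whole adult males of 1 transgenic Drosophila melanogaster line, strain kay-GFP, which makes kay with a GFP tag at its C-terminal end. The 2 libraries form 1 group of biological replicates, numbered 3 and 1 in the labels, which give the age as unknown and do not give the number of flies per library. Whole flies mix every tissue, so binding in a few cells and weak binding in many cannot be told apart. The authors deposited 1 peak list per replicate and 1 list called on the pooled replicates. They labelled the pooled list as peaks and background, for input to their step for irreproducible discovery rate. Its entries therefore include background by the authors' own label. They named 1 further list optimal after that step, and no control library was analysed here.

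The lists differed in length, with 13835 peaks for replicate 3, 2060 for replicate 1, 4350 for the pooled replicates and 199 for the optimal list. Peaks on the mitochondrial chromosome numbered 31, 36, 33 and 34 in that order. The other protein-coding genes include 13 on that chromosome, and no RP gene lies there. Many peaks of the longer lists were weak by the authors' own measure, since 478 of the replicate 3 peaks, 185 of the replicate 1 peaks and 327 of the pooled peaks had a q-value of at most 0.05. The sources used here state no read depth. A gene was counted when the summit of a peak, its highest point, lay within 1 kb of any of its annotated transcription starts. The range in brackets after a share is its 95% Wilson interval, which reflects counting error and no other source. Genes are not replicates, so all shares are descriptions.

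In the replicate 3 list 21 of the 92 RP genes had a summit within 1 kb of a start. The share was 22.8% (15.4 to 32.4) of the RP genes against 27.3% (26.6 to 28.1) of the 13866 other protein-coding genes, and 27.3% of all protein-coding genes. The RP share was thus near the background in this list, with the background value inside its interval. In the replicate 1 list 1 RP gene had such a summit, 1.09% (0.192 to 5.9), against 6.76% (6.35 to 7.19) of the other genes and 6.72% of all. The pooled list had 5 such RP genes, or 5.43% (2.34 to 12.1), against 11.1% (10.6 to 11.6) of the other genes and 11.0% of all. Here too the background lay inside the RP interval, while in the replicate 1 list it lay above the interval's upper end. Both readings turned with the way genes were counted. Within 500 bp the pooled share was 1.09% (0.192 to 5.9) of RP genes against 8.54% of other genes, with the other genes above the interval. They were also above it when each summit was counted for the gene of its nearest start, at 3.26% (1.12 to 9.15) against 9.27%. Within 2 kb the replicate 1 share was 5.43% (2.34 to 12.1) against 9.2%, inside the interval. In the optimal list 0 of 92 RP genes had a summit, which allows a share of up to 3.26%, against 138 of the other genes, 0.995% (0.843 to 1.17), and 0.989% of all. A list this short was too small for its background share to be told from 0 over 92 genes. That background share includes the 13 genes of the mitochondrial chromosome, where 34 of the list's 199 peaks lay.

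**Figure D1:**
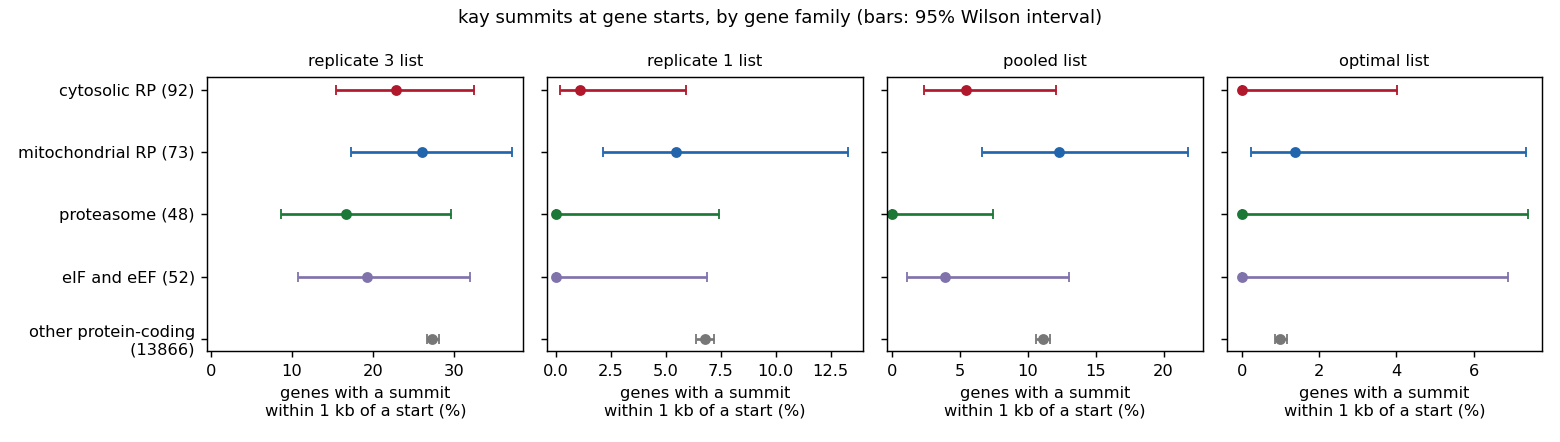
Share of genes with a kay summit within 1 kb of a start (x axis, %) in each of the 4 peak lists, for the cytosolic RP genes, 3 other gene families and the other protein-coding genes. Points are shares and bars are 95% Wilson intervals. The cytosolic RP genes lie at 22.8%, 1.09%, 5.43% and 0%, left of the other protein-coding genes in each panel.

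For comparison 3 other housekeeping families, chosen by symbol, were set beside the RP genes in the plot of shares by family. The cytosolic RP share of 22.8% in the replicate 3 list stood beside 26.0% of the 73 mitochondrial ribosomal protein genes, 16.7% of the 48 proteasome genes and 19.2% of the 52 translation initiation and elongation factor genes. The pooled share of 5.43% of the cytosolic RP genes stood beside 12.3% of the mitochondrial ribosomal protein genes, 0 of the proteasome genes and 3.85% of the factor genes. The intervals of the 4 families overlapped in every list. The order changed among replicate 3 peaks with a q-value of at most 0.05. There the share was 1.09% (0.192 to 5.9) of the cytosolic and 8.22% (3.82 to 16.8) of the mitochondrial ribosomal protein genes. It was 2.08% of the proteasome genes, 0% of the factor genes and 2.69% of all protein-coding genes. The intervals of the families overlapped there too.

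The number of peaks counted did not bring the RP genes above the other genes by more than a fraction of a percentage point at any step computed in the replicate 3 list. With its highest 200 peaks, 1.09% of the RP genes and 1.07% of the other genes were reached. With 1000 peaks these shares were 2.17% and 5.12%, with 5000 peaks 14.1% and 15.7%, and with 10000 peaks 20.7% and 22.8%. Holding replicate 3 to its highest 2060 peaks, the length of the replicate 1 list, left 7 RP genes, 7.61% (3.73 to 14.9), against 8.77% of the other genes and 8.76% of all. Among replicate 3 peaks with a q-value of at most 0.05, 1 RP gene was left, 1.09%, against 2.70% of the other genes and 2.69% of all. No RP gene was left at that threshold in the replicate 1 list, against 0.923% of the other genes, or in the pooled list, against 1.73%.

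**Figure D2:**
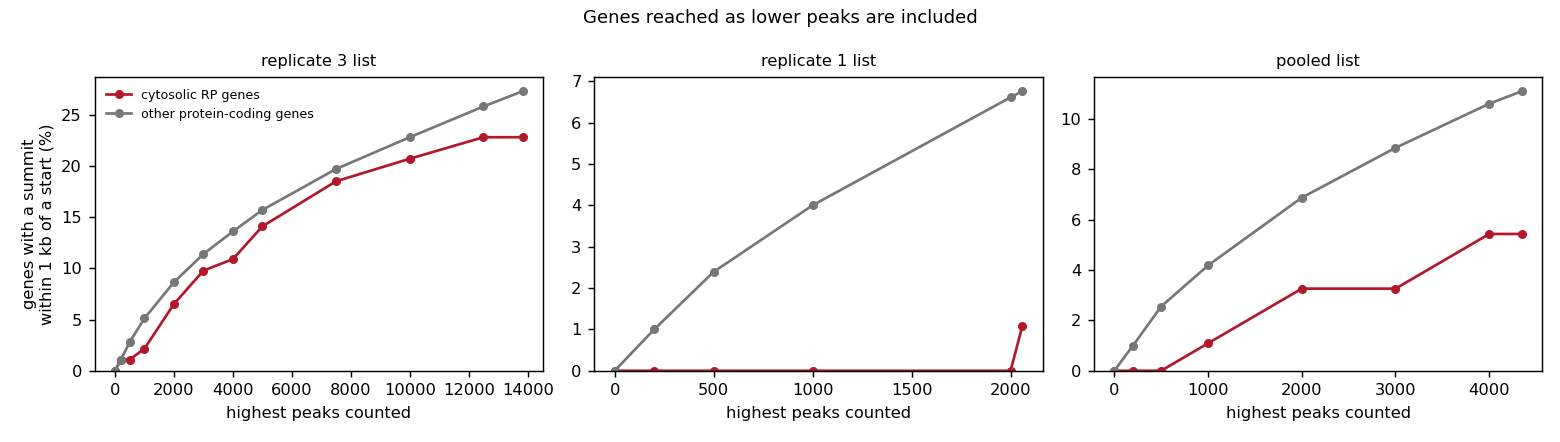
Share of cytosolic RP genes (red) and of other protein-coding genes (grey) with a summit within 1 kb of a start (y axis, %), as peaks are added from the highest down (x axis, number of peaks), in the replicate 3, replicate 1 and pooled lists. In the replicate 3 panel the curves run close together up to 22.8% and 27.3%, and in the replicate 1 panel the RP curve leaves 0 at its end.

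The RP gene with the highest peak was RpLP1 (FBgn0002593, chromosome 2L, 419952 to 420864, plus strand), which codes for an acidic protein of the stalk that recruits translation factors to the large subunit. In the replicate 3 list its peak, at 419603 to 420026, ranked 64 of 13835, with a signal of 117 in the authors' unit. Its −log10 q-value of 2.61, a q of 0.00243, is the highest the list holds, shared with other peaks. The summit, at 419815, lay 137 bp upstream of the RpLP1 start and 163 bp from the start of CG13690, which runs the other way. In the replicate 1 list the nearest summit was 51358 bp from the RpLP1 start, and in the pooled list 15584 bp. The highest-ranked RP peak was thus in the list of 1 replicate and in neither the list of the other nor the pooled list. The sequence from upstream of the summit to just past the start is shown because it holds the AP-1 letters nearest to an RP summit among those within 500 bases of an RP start. Capitals mark, from left to right, AP-1 (TGACTCA), the motif 1 core (GGTCACACT) and the TCT initiator (TCTTTC). The sequence is from NCBI RefSeq's Release 6 (dm6) genome, chr2L:419673-419972, plus strand, 5′ to 3′.
RpLP1: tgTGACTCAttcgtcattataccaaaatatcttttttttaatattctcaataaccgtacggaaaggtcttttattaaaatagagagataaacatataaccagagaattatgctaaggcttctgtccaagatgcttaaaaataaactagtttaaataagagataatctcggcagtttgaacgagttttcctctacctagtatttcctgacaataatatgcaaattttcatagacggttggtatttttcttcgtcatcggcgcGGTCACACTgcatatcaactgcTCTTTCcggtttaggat

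The AP-1 letters at RpLP1 were centred 274 bases upstream of the start and 137 bp from the summit. They therefore lay outside the window of 100 bp either side of the summit in which motifs were counted. They lay between the summit and the start of CG13690, nearer to that start than to the RpLP1 start. The absence of a pooled peak was not particular to RpLP1. Of the 33 nuclear replicate 3 peaks that ranked as high or higher, 28 overlapped a pooled peak and 5 overlapped neither a pooled nor a replicate 1 peak. The other 4 of those 5 had their nearest starts at Tbca, CG1635, pAbp, which codes for the poly(A) binding protein, and CG16753. Among all 447 nuclear replicate 3 peaks with a q-value of at most 0.05, 24.2% overlapped no pooled peak.

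Further RP promoters are printed because their summits lay at or near a DRE (TATCGATA), which is in capitals, as is the TCT initiator of RpL10Ab (CCTTTC). RpL10Ab codes for a large-subunit protein, and its replicate 3 summit lay 75 bp upstream, inside the DRE letters. RpS12 and RpS10b code for small-subunit proteins. RpS12 had a summit 43 bp upstream in the replicate 3 list and 39 bp upstream in the pooled list, the pooled one inside the DRE letters, and RpS10b had a summit 11 bp upstream in the replicate 3 list. The stretches are from the same genome, at chr3L:11822701-11822871, plus strand, at chr3L:13023202-13023372, plus strand, and at chrX:19597881-19598051, plus strand, 5′ to 3′, each ending 20 bases after the start.
RpL10Ab: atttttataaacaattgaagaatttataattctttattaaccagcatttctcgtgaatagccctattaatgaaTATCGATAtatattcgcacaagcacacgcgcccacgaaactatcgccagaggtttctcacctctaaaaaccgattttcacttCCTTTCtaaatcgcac
RpS12: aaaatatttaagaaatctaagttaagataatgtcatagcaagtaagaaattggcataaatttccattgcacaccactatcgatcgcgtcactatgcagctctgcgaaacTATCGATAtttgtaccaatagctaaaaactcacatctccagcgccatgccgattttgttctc
RpS10b: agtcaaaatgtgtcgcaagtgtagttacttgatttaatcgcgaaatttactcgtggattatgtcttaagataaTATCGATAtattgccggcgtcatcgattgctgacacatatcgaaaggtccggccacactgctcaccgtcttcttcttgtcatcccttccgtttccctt

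RpS12 (FBgn0286213, 3L, 13023352 to 13024762, plus strand) was the RP gene with the most summits near its start. Replicate 3 gave it summits 256 bp upstream, 43 bp upstream and 695 bp downstream, ranked 1938, 5505 and 12579. The pooled list gave it summits 262 bp and 39 bp upstream, ranked 1016 and 2079 of 4350. The upper upstream pair and the lower upstream pair thus lay within a few bases of each other across these lists, although the pooled list contains the reads of replicate 3. The q-value of its best peak was 0.313 in the replicate 3 list and 0.28 in the pooled list. The nearest replicate 1 summit was 8046 bp away.

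Of the other large-subunit genes, RpL10Ab ranked 1532 in the replicate 3 list, with a signal of 34.3 and a q of 0.265. RpL15 had a summit 226 bp downstream of its start, ranked 2122, which was 99 bp from the start of a small nucleolar RNA gene inside RpL15. RpL6 had summits 496 bp and 233 bp upstream, ranked 2842 and 5528. RpL37-1 had a summit 620 bp upstream, ranked 3773. The q-values of the best peaks at RpL15, RpL6 and RpL37-1 were 0.345, 0.431 and 0.517. None of these 4 genes had a summit within 1 kb of a start in the pooled or the replicate 1 list.

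RpL39 (FBgn0023170, 2R, 24061853 to 24062431, minus strand), which codes for a small protein of the large subunit, had the best RP peak of the pooled list, ranked 663 with a signal of 69.6 and a q of 0.177. Its summit was 632 bp upstream of RpL39 and 12 bp from the start of Rap2l, which codes for a small GTPase. Replicate 3 gave RpL39 a summit 369 bp downstream of the start, ranked 1586, and another 620 bp upstream, ranked 2144, exactly at the Rap2l start. The upstream summits of RpL39 in both lists were therefore nearer to Rap2l than to RpL39.

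Of the small-subunit genes, RpS27A, which codes for a ribosomal protein fused to ubiquitin and shares its start with Ip259, had replicate 3 summits 323 bp and 109 bp upstream, ranked 1474 and 6412. RpS27 had a summit 49 bp upstream, ranked 2052, with a q of 0.333. RpS15Aa had a summit 892 bp downstream of a start in both the replicate 3 list, ranked 4965, and the pooled list, ranked 3307. RpS28b had a summit 940 bp downstream of its start in the pooled list alone, ranked 3444, and its nearest replicate 3 summit was 2321 bp away. The q-values at RpS15Aa were 0.61 in the replicate 3 list and 0.801 in the pooled list, and the one at RpS28b was 0.825. RpS10b ranked 5924 with a q of 0.673.

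The RP gene with a summit in both replicates was RpLP0-like (FBgn0033485, 2R, 10098518 to 10099590, minus strand), named for its likeness to RpLP0. Its replicate 3 summit was 853 bp upstream, ranked 792 with a signal of 44.0 and a q of 0.126. In the replicate 1 list it was 703 bp upstream, ranked 2058 of 2060 with a signal of 19.6 and a q of 0.96. The pooled summit was 851 bp upstream, ranked 1013 with a signal of 58.8 and a q of 0.281. In all 3 lists the summit was nearer to a start of 14-3-3zeta, which codes for a signalling adaptor protein, at distances of 593, 616 and 595 bp. Without the symbols that end in -like, the replicate 1 list held no RP gene with a summit near a start.

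The other stalk genes differed from RpLP1. RpLP0, whose protein anchors the stalk to the large subunit, had a replicate 3 summit 864 bp upstream, ranked 6462 with a q of 0.707, and this summit was nearer to the start of CG7133, at 480 bp. RpLP2, which codes for the second acidic stalk protein, had no summit within 1 kb in any of the 4 lists. Its nearest summit was 1938 bp away in the replicate 3 list, 27443 bp in the pooled list and 63438 bp in the replicate 1 list.

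The remaining 8 RP genes of the replicate 3 list were RpS7, RpL8, RpS26, RpL17, RpS9, RpL38, RpL23 and RpL37A. Their best peaks ranked between 4613 and 11351, and RpL8 had its summit 68 bp upstream. The RpL17 summit lay 1 bp from the start of a tRNA gene and 304 bp from RpL17. At RpL37A the summit was 13 bp from an antisense RNA gene's start, and at RpL23 208 bp from that of CG13531. Over the 21 RP genes the best peak ranked at a median of 4613, or 33.3% of the way down the list, against 4022, or 29.1%, for the other genes with a summit. The pooled list gave a median rank of 1016 for the 5 RP genes and 1460.5 for the other genes.

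**Figure D3:**
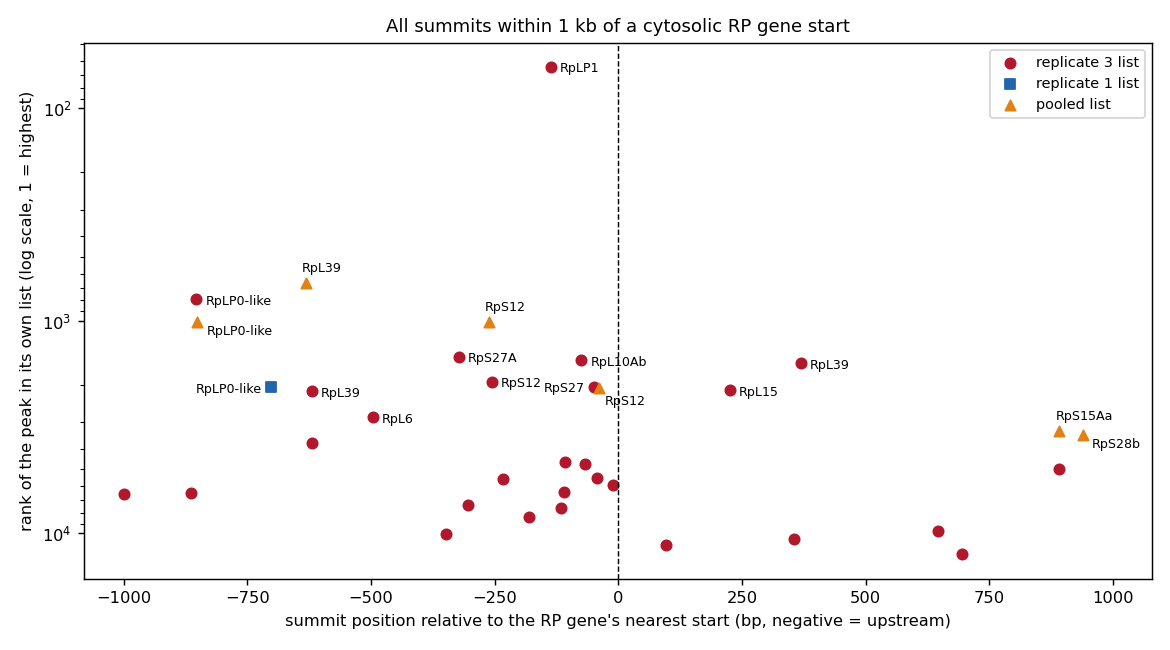
Every summit within 1 kb of a cytosolic RP gene start, by its position relative to the start (x axis, bp, negative upstream) and the rank of its peak in its own list (y axis, log scale, rank 1 at the top). Circles are replicate 3, the square is replicate 1 and triangles are the pooled list. RpLP1, at rank 64 and 137 bp upstream, stands above all other points.

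Across the RP genes the replicate 3 list held 28 summits within 1 kb of a start. Of these, 21 were upstream, 75.0% (56.6 to 87.3), against 60.4% (59.1 to 61.8) of the 5122 summits near other protein-coding genes. The median distance from the start was 280 bp at RP genes and 316 bp at other genes, and 46.4% and 42.3% lay within 250 bp. Of the 28 summits, 9 were nearer to a start that belongs to no RP gene, and 19 were nearest to an RP start. The 9 were at RpLP0-like, RpLP0, RpL23, RpL39, RpL15, RpL17, RpL37A, RpS12 and RpS27. At RpL15, RpL17 and RpL37A, and at the downstream summits of RpS12 and RpS27, the nearest start was of a noncoding gene. When each summit was counted for the gene of its nearest start alone, noncoding genes included, 15 RP genes remained in the replicate 3 list, 16.3%, against 22.9% of the other genes. Of the pooled list's RP genes 3 remained, RpS12, RpS15Aa and RpS28b, or 3.26% against 9.27%, and in the replicate 1 list 0 against 5.6%.

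RP genes and other genes differed in layout in ways that bear on such counts. Another gene's start lay within 1 kb of a start for 71 RP genes, 77.2%, against 48.0% of the other genes. The median length was 1315 bp for RP genes and 2177 bp for other genes. RP genes had 1.68 annotated starts on average and other genes 1.4, but the starts of an RP gene lay close together. The median distance between the outermost starts was 83 bp for the 44 RP genes with more than 1 start and 880 bp for the 3655 such other genes. The windows of 1 kb around the starts therefore covered a mean of 2101 bp per RP gene and 2400 bp per other gene. Per Mb of such windows the replicate 3 list held 145 summits at RP genes and 190 at other genes. The pooled list held 31.2 and 70.4, and the replicate 1 list 5.2 and 36.8. These RP values rest on 28, 6 and 1 summits in 0.192 Mb.

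Split by the number of starts, the replicate 3 shares lay close together for genes with 1 start, at 22.9% (13.3 to 36.5) of 48 RP genes and 20.9% of the other genes. With 2 starts the share was 24.1% (12.2 to 42.1) of 29 RP genes and 37.2% of the other genes. With 3 or more starts it was 20.0% (7.05 to 45.2) of 15 RP genes and 63.0% of 1118 other genes. In replicate 3, other genes with more starts more often had a summit, and the RP shares stayed between 20.0% and 24.1%. In the pooled list the shares with 1 start were 8.33% of the RP genes and 7.15% of the other genes, and with 3 or more starts 0 of 15 RP genes and 35.8% of the other genes. Replicate 1 had a lower RP share with 1 start, as 2.08% (0.369 to 10.9) of the RP genes and 4.09% of the other genes with 1 start had a summit, and with 3 or more starts 0 of 15 RP genes and 24.3% of the other genes. The outermost starts of genes with 3 or more starts lay a median of 318 bp apart in RP genes and 4093 bp apart in other genes. The part of this spacing in the shares was not tested.

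**Figure D4:**
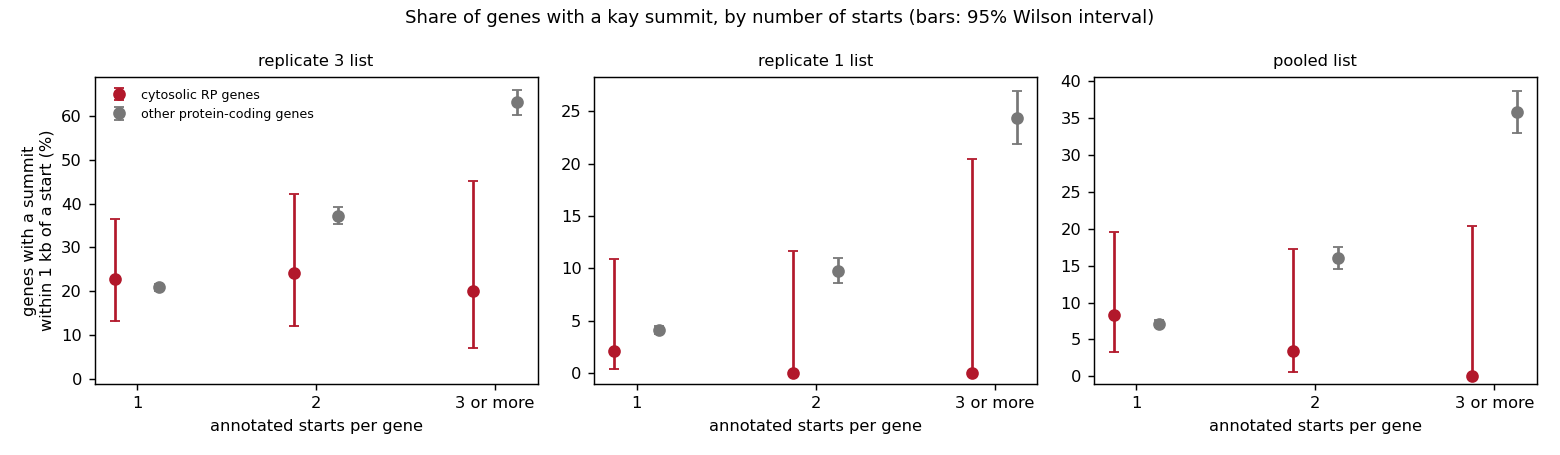
Share of genes with a kay summit within 1 kb of a start (y axis, %), by the number of annotated starts per gene (x axis), for cytosolic RP genes (red) and other protein-coding genes (grey) in 3 peak lists. Bars are 95% Wilson intervals. The 2 kinds of gene lie close together at 1 start in the replicate 3 panel (22.9% and 20.9%) and apart at 3 or more (20.0% and 63.0%).

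Within the RP genes of the replicate 3 list, 20.0% (11.2 to 33.0) of the large-subunit genes and 21.1% (11.1 to 36.3) of the small-subunit genes had a summit. So did 3 of the 4 genes with RpLP symbols (30.1 to 95.4%), and at RpLP0-like and RpLP0 it was nearer to another gene's start. Of the 27 genes with a paralog or a -like partner 22.2% had one, as did 23.1% of the other 65 RP genes. On the arms with more than 1 RP gene the RP share ran from 13.0% (4.54 to 32.1) of 23 genes on 3R to 42.9% (21.4 to 67.4) of 14 genes on 3L. It was 28.6% (11.7 to 54.6) of the 14 genes on X. The other genes stood at 27.0% on 3R, 30.7% on 3L and 19.8% on X, each inside the RP interval. The 1 RP gene on arm 4, RpS3A, had no summit within 1 kb of a start, while 83.5% of the 79 other genes on that arm had one.

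The replicates shared RpLP0-like alone among the RP genes, and no RP gene once the -like symbols were left out. It made up 4.76% of the 21 in the replicate 3 list and was the 1 RP gene of the replicate 1 list. For the other genes 861 were shared, 22.7% of those in the replicate 3 list and 91.9% of those in the replicate 1 list. With 2060 peaks from each replicate, 14.3% of the 7 RP genes of replicate 3 were shared, against 43.3% of the 1216 other genes. The RP shares rest on 1 gene at rank 2058 of the replicate 1 list.

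Counting anywhere in the gene widened the gap in the replicate 3 list. A summit lay between the ends of 10 RP genes, 10.9% (6.01 to 18.9), against 24.4% of the other genes, which are longer. In the gene or within 1 kb of it, 30.4% of RP genes and 39.3% of other genes had a summit. In the replicate 1 list this wider count took in RpLP0-like, RpS13, RpS21, RpS3A and RpS9, 5.43% against 10.8%. The optimal list again held 0 RP genes against 1.49%. The optimal summit closest to an RP start was 2575 bp from RpLP0-like, and the median distance to the nearest optimal summit was 231605 bp for RP genes and 258086 bp for other genes.

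Motifs were searched on both strands from 250 bases before to 50 after each start. The AP-1 letters, TGACTCA or TGAGTCA, stood at 0 of 92 RP genes, against 3.46% (3.17 to 3.78) of the 13853 other nuclear genes and 3.44% of all. A count of 0 allows a share of up to 3.26% by the limit of 3 counts and up to 4.01% by the Wilson interval. The 3.46% of the other genes lay above the first limit and below the second. Whether the RP genes differ in this window was therefore not clear with 92 genes. The CRE letters TGACGTCA, a site of related leucine zipper factors, stood at 0 RP genes and at 0.729% of the other genes. The GAGA letters GAGAGAG, bound by the GAGA factor, stood at 1 RP gene, RpS19a, 1.09% against 9.15%. The DRE, TATCGATA, stood at 28 RP genes, 30.4% (22.0 to 40.5), against 1390 of the 13853 other genes, an interval of 9.54 to 10.5%, and 10.2% of all. The motif 1 core GGTCACACT stood at 10 RP genes, 10.9% (6.01 to 18.9), against 6.75%. None of these motifs contains another.

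The TCT initiator was searched as CTTT with C or T on either side, on the gene strand and within 10 bases of a start. It stood at 63 RP genes, 68.5% (58.4 to 77.1), against 2.59% (2.34 to 2.87) of the other nuclear genes and 3.03% of all. Within 500 bases either side of a start the AP-1 letters stood at 3 RP genes, RpLP1, RpL21 and RpS19b. The share was 3.26% (1.12 to 9.15) against 9.76% (9.28 to 10.3) of the other genes, which lay above the RP interval. At RpL21 and RpS19b the nearest replicate 3 summits were 6796 bp and 6000 bp from those letters, against 137 bp at RpLP1.

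**Figure D5:**
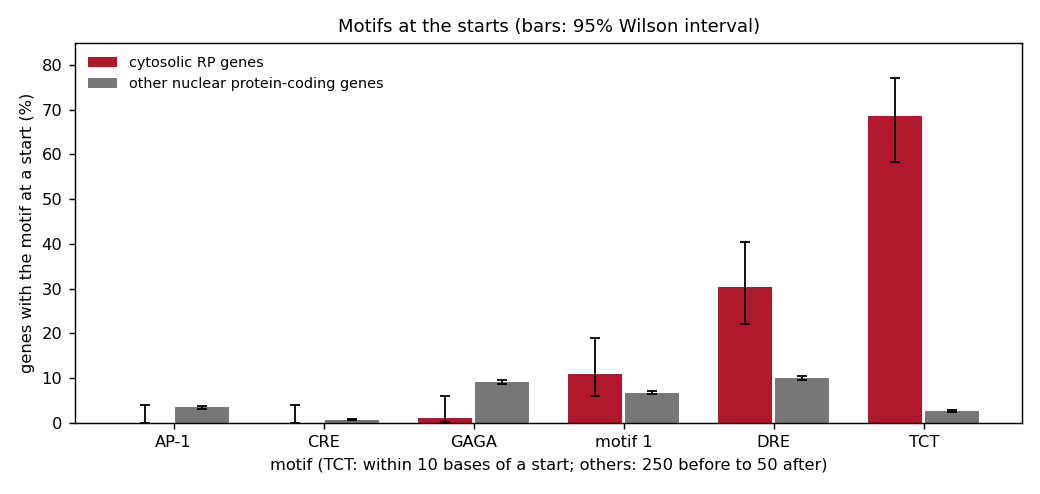
Share of the 92 cytosolic RP genes (red) and of the 13853 other nuclear protein-coding genes (grey) with each motif at a start (y axis, %). Error bars are 95% Wilson intervals. TCT (68.5% and 2.59%) and the DRE (28 RP genes and 1390 other genes) have the higher shares at RP genes, and GAGA (1.09% and 9.15%) a lower one. The AP-1 share (0% and 3.46%) is lower too, but the RP interval holds the share of the other genes.

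Under the summits themselves, within 100 bp either side, the AP-1 letters stood at 0 of the 28 replicate 3 summits near RP genes, which allows up to 10.7%, against 4.16% (3.65 to 4.74) of the 5122 near other genes. The number of RP summits was too small to show a difference of that size. The DRE stood under 5 of the 28 RP summits, 17.9% (7.88 to 35.6), against 2.56% (2.16 to 3.03) of the summits near other genes. These 5 were at RpL10Ab, RpL39, RpL6, RpS10b and RpS12. The pooled summit near RpL39 also held a DRE, and it lay 12 bp from the start of Rap2l. Of the replicate 3 summits near RpL39, the upstream one lay exactly at the Rap2l start. Which of them held the DRE was not told apart here. The DRE stood at 30.4% of all RP promoters, those with no summit included. That share counts genes over a window at the start, and the 17.9% counts summits over a window of another size, so they are not directly comparable. Of the 28 RP genes with a DRE 28.6% (15.3 to 47.1) had a replicate 3 summit, and of the 64 without one 20.3% (12.3 to 31.7), with intervals that overlap.

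RP genes with the TCT initiator had a replicate 3 summit in 23.8% (15.0 to 35.6) of 63 cases and those without it in 20.7% (9.85 to 38.4) of 29. Among other genes the shares were 43.7% (38.7 to 48.9) of the 359 with TCT letters and 26.8% (26.1 to 27.6) of those without. The AP-1 letters at the start went with a summit among other genes, at 45.0% (40.6 to 49.5) of 480 genes with them and 26.6% (25.9 to 27.4) of those without. The GAGA and CRE letters did so too. A summit stood at 48.8% (46.0 to 51.5) of the 1267 other genes with GAGA letters against 25.1% without. For CRE letters it was 47.5% (38.1 to 57.2) of 101 against 27.1% without. The DRE differed less, at 30.4% (28.0 to 32.8) of the other genes with it against 26.9% without. With motif 1 the shares were alike, at 27.9% (25.1 to 30.9) against 27.2%. None of the 92 RP genes had the AP-1 or CRE letters at the start and 1 had the GAGA letters. The part of these motifs in the RP shares was not tested.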

How the data were processed

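Peaks of kay-GFP in whole adult males were described in 2 replicates of 1 group. The signal of each peak, its −log10 q-value and the offset of its summit were the authors' deposited values. The signal's scale differs between lists, so it served to rank peaks within a list. The aligner, peak caller and settings were not given in the sources read. Per the deposited listing of files, the authors made the list of a replicate from its own alignments with 1 control file. Only the 4 dm6 lists were used, and the dm3 lists were not analysed here because no dm3 annotation was used.

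Summits were set against every transcript start of protein-coding genes in Ensembl release 115 on the same Release 6 coordinates, and distances to the nearest start also considered noncoding genes. Sequences came from the NCBI RefSeq genome of that release. Python 3.11.15, numpy 2.4.6, pandas 2.3.3 and scipy 1.17.1 were used, and the distance step was tested on simulated summits. No test was run, since there is 1 group. Where a count is 0, the limit given is 3 counts of the total.

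Genes named were all RP genes with a summit in the pooled or optimal list, those with the 10 highest peaks of each replicate, the stalk genes, and paralogs with a summit in any list. The remaining RP genes with a replicate 3 summit, and those named for a motif or for a summit inside the gene, were named after their values were seen. The members, families and motifs were chosen with earlier results of these data known.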

Additional observations from a re-analysis of the deposited data

How the results depend on the processing

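The shares of RP genes with a summit moved with the distance, the place counted and the number of peaks. In the replicate 3 list the share of 22.8% became 34.8% within 2 kb, against 36.2% of all protein-coding genes. With as many peaks as the replicate 1 list it became 7.61%, against 8.76% of all. It was 1.09% with q-values of at most 0.05, against 2.69%, and 1.09% with as many peaks as the optimal list, against 1.06%. In the replicate 1 list the share of 1.09% rests on RpLP0-like and became 5.43% within 2 kb, against 9.18% of all genes. In the gene or within 1 kb of it the share was 5.43%, against 10.8% of the other genes. It became 0% within 500 bp, against 5.07% of all genes, and 0% without the -like symbols. By nearest start it was 0%, against 5.6% of the other genes. At that q-value it was 0%, against 0.917% of all genes, and at the optimal length 0%, against 0.982%. In the pooled list the share of 5.43% became 9.78% within 2 kb, against 14.7% of all genes, and 1.09% within 500 bp, against 8.49%. At that q-value it was 0%, against 1.72% of all genes, and at the optimal length 0%, against 0.989%. Replacing the pooled list by the list of either replicate gave 1.09% to 22.8%, without replicate 3 and without replicate 1. The optimal list's 0% became 0% to 1.09% when either replicate was left out and its highest peaks taken from the other. Across all results and alternatives 14 values moved by more than their interval and 29 did not, among them those with sta added, an alternative chosen after seeing the data. No paired analysis was possible because there is 1 group. With 1 deposited list per library and no read depth known, the spread between libraries is given by the replicate lists alone.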
